A study of Homo sapiens with 15 samples.

Results

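The genes described here lie along one stretch of the short arm of human chromosome 7, from TNRC18 to SNX13. They were chosen by their log2 differences between T-DM1-resistant clones and the parental line in the same arrays, many of which were negative, so their differences from parental are a description and carry no test. Of the 43 listed genes, 26 had a probe set with a gene symbol and 23 of these passed the filter on dim probe sets, out of 12147 genes tested in all. The 17 others (ACTB, FSCN1, AIMP2, RAC1, DAGLB, KDELR2, GRID2IP, ZDHHC4, C1GALT1, COL28A1, MIOS, RPA3, ICA1, NXPH1, NDUFA4, THSD7A and DGKB) were not analysed here.

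The arrays held total RNA of 4 clones resistant to T-DM1, C#1 and C#2 as well as C#3 and C#6, and of parental BT474 cells, with 3 arrays each. BT474 is a breast cancer line with HER2 amplification, and T-DM1 couples a HER2 antibody to a drug that blocks microtubules. Each clone grew from 1 cell after long exposure to the drug and was then kept in 5 nM T-DM1 for 3 months, and the labels do not say if it was still in the medium when RNA was taken. The 3 arrays of each clone measure the spread of that one clone, no drug-free clone was measured, and resistance, cloning and drug culture cannot be told apart. Values are log2 expression, and the submitters' processing notes name RMA, a method meant to make the intensity distributions of arrays alike. The upper quartile of all probe sets was still 5.80 to 5.89 in the clone arrays and 5.94 to 5.96 in the parental arrays. Of 8 luminal breast markers with a symbol, KRT18, KRT19, EPCAM, FOXA1 and XBP1 lay above 96.1% of probe sets in every array, KRT8 above 67.2%, GATA3 above 73.1% and ESR1 above 87.2%, while the mean of all 8 was 8.78 to 9.18 in the clones and 9.40 to 9.47 in parental cells. These markers went both ways, but 5 of the 8 were called lower in at least 1 clone and 1 was called higher. Of all 12147 genes, 2892 and 1810 were. KRT8 was called lower in C#1 and C#6 (-0.70 and -0.45), KRT18 in C#3 and C#6 (-0.56 and -0.57), and XBP1 in C#3 (-0.45). GATA3, a luminal transcription factor, differed most from parental, by -2.89 in C#1, -3.14 in C#2, -0.76 in C#3 and -2.36 in C#6 (limma adjusted p at most 0.00183), and was least low in C#3. ESR1, the oestrogen receptor, was called lower in all 4 clones (-0.84 to -0.43), EPCAM was called higher in C#1, C#2 and C#6 (0.32, 0.27 and 0.50), and KRT19 and FOXA1 were not called. Of 11 markers of other cell types, 5 had a symbol. These were DCN, LUM, LYZ, PECAM1 and VWF, which averaged 3.09 to 3.29 in the clones and 3.19 to 3.22 in parental cells. VWF alone of these passed the filter, with log2 values of 3.73 to 4.17 over all arrays. The part of these marker differences in the results was not tested.

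Neighbouring genes on a chromosome arm can share copy number and chromatin state, and each can still have a promoter and regulators of its own. Several of these genes are well known in epithelial cells. AGR2 is a protein disulfide isomerase of the endoplasmic reticulum that secretory cells use to fold mucins. AHR is a transcription factor that is switched on by small aromatic ligands and binds DNA with its partner ARNT. SCIN encodes scinderin, which severs actin filaments, and RNF216, FBXL18 and USP42 act in the attachment and removal of ubiquitin.

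The median of the tested listed genes lay below parental in all 4 clones, but single genes were not even. By calls, the label of a fall in all clones held for 3 of the 23 genes (3.65% of all genes). Without overlap between any clone array and any parental array, it held for 8 (7.85% of all genes). The median log2 difference of the 23 tested genes from the parental mean was -0.37, -0.34 and -0.28 in the C#1 arrays, -0.37, -0.38 and -0.45 in C#2, -0.17, -0.19 and -0.24 in C#3, and -0.43, -0.39 and -0.49 in C#6. In the parental arrays it was -0.0012, 0.0060 and 0.028. All clone arrays lay below all parental arrays, and the C#3 arrays were the closest to parental. The median over all 12147 genes was -0.04 to -0.0019 in the clone arrays. In RNA of a whole culture, fewer cells that express a gene and less RNA per cell cannot be told apart.

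At an adjusted p below 0.05 in limma, a linear model fitted to all genes, 11 of the 23 genes were called lower in C#1, where 11.2% of all tested genes were. In C#2 it was 11 genes against 11.5% of all genes, in C#3 6 genes against 11%, and in C#6 13 genes against 14.7%. Called higher were 0 listed genes in C#1 and 1 in each other clone, against 6.03% of all genes in C#1, 5.47% in C#2, 6.22% in C#3 and 7.73% in C#6. In either direction the shares of all genes were 17.2%, 16.9%, 17.2% and 22.4%. The genes VWDE, BZW2 and SNX13 were called lower in all 4 clones, as were 3.65% of all genes. VWDE kept these calls under every alternative tried. BZW2 lost its call in C#2 without either of 2 single arrays, and SNX13 its call in C#1 without any one of 6. A further 7 (FBXL18, RNF216, USP42, TMEM106B, TSPAN13, AGR2 and AHR) were called lower in C#1, C#2 and C#6 but not in C#3. EIF2AK1 was called in C#1 and C#2 and GLCCI1 in C#3 and C#6. TNRC18 and ANKMY2 were called in C#6 alone, and CYTH3 and PHF14 in C#3 alone. OCM, PMS2, ZNF853, SCIN, ETV1, MEOX2 and SOSTDC1 were called lower in none, and SCIN was called higher in C#2, C#3 and C#6. Every clone array lay below every parental array for 8 of the 23 genes, against 7.85% of all genes. Within single clones, the 3 arrays lay below all parental arrays for 21.8% of all genes in C#1, 22.1% in C#2, 22.3% in C#3 and 24.1% in C#6. These counts follow from how the genes were listed.

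**Figure D1:**
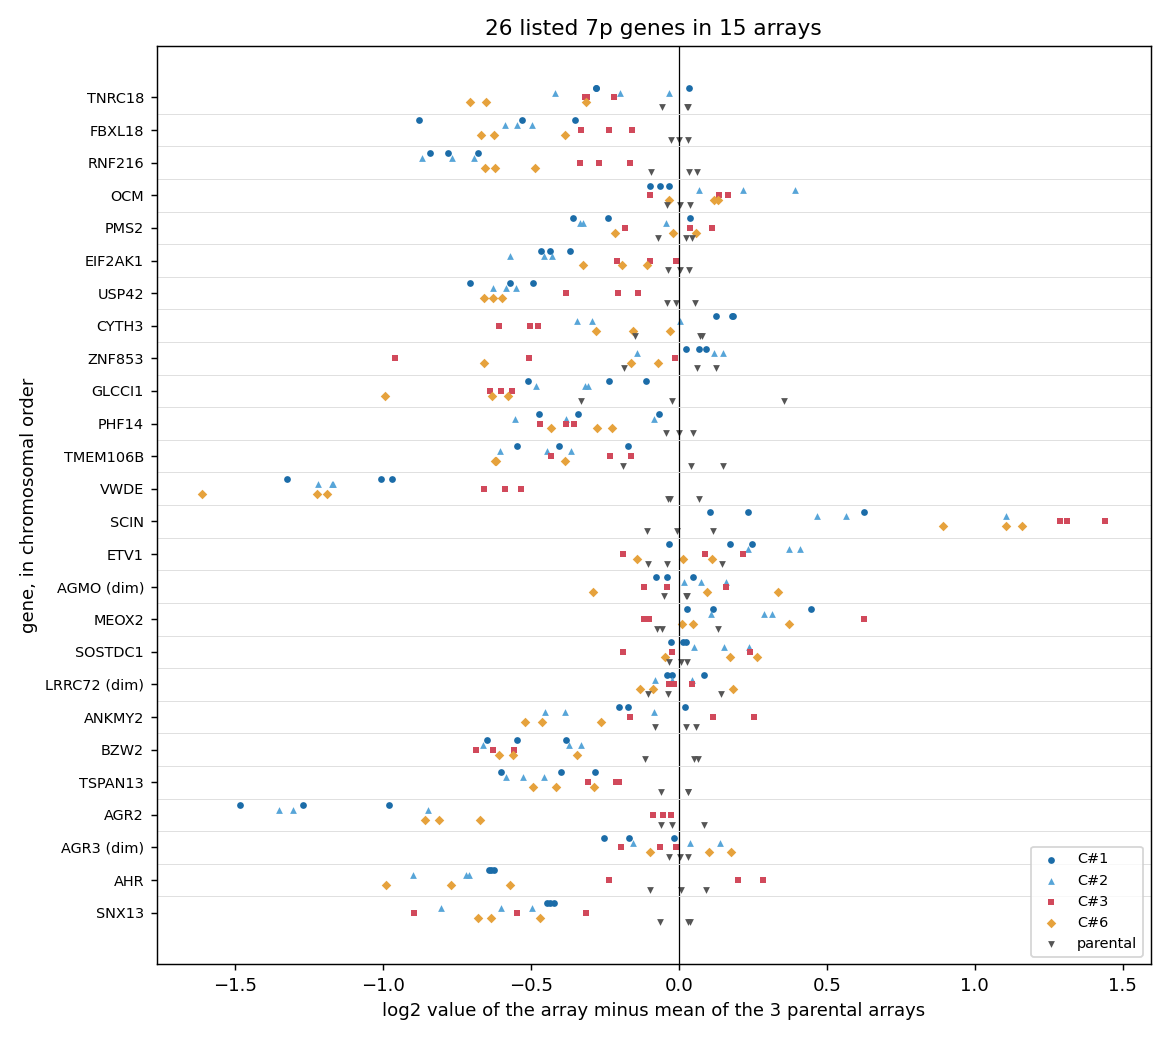
Each point is 1 array, placed by its log2 value minus the mean of the 3 parental arrays (x axis), for the 26 listed genes with a symbol in chromosomal order (y axis); genes marked dim did not pass the filter. VWDE, AGR2 and AHR lie far to the left in C#1, C#2 and C#6, AGR2 and AHR of C#3 lie near 0, and SCIN lies to the right.

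Differences between clones were tested next. They rest on the same clone arrays whose values chose the genes, so these tests are not independent of that choice. Their p-values, adjusted over all tested genes, set each difference against the spread between arrays and give no support to the choice of genes. An F test among the 4 clones called 9 of the 23 genes (AGR2, AHR, SCIN, VWDE, CYTH3, RNF216, USP42, EIF2AK1 and ANKMY2), where it called 22.5% of all genes. Between C#1 and C#3, 7 genes were lower and 1 higher in C#1 (against 8.65% and 8.15% of all genes, 16.8% in either direction). Between C#2 and C#3, 7 were lower and 0 higher in C#2 (against 8.79% and 6.96%, 15.8% in either direction). Between C#3 and C#6, 6 were higher and 1 lower in C#3 (against 4.96% and 4.06%, 9.01% in either direction). Pairs without C#3 gave fewer. Between C#1 and C#6, 2 genes were called, both lower in C#1 (against 5.61% lower and 7.07% higher, 12.7% in either direction). Between C#2 and C#6 limma called 0 (against 5.47% lower and 5.69% higher, 11.2% in either direction). In that pair 6 of the 23 genes had an unadjusted p below 0.05, as did 2912 of all 12147 genes. Between C#1 and C#2 limma called 0 of the 23 genes and 0 of all genes (0%). Here 3 of the 23 had an unadjusted p below 0.05, as did 807 of all 12147 genes. No second tool was run on these pairs, but the same fit with trend and robust settings called 0 genes between C#1 and C#2 and 1 between C#2 and C#6.

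AGR2, AHR, VWDE, RNF216 and USP42 were called in each of the 3 pairs that hold C#3, always higher in C#3. The calls of AGR2, AHR and VWDE in these 3 pairs were kept without any one array, as were those of RNF216 against C#1 and C#2. Each of the 3 calls of USP42 was lost without any one of 3 single arrays, C#3 replicates 1 and 2 among them, and with the 6 arrays of the pair alone. The call of RNF216 between C#3 and C#6 (adjusted p = 0.0373) was lost without any one of 6 single arrays and under 3 other settings. The F test gave adjusted p = 3.61e-05 for AGR2, 0.000346 for AHR, 0.00115 for VWDE, 0.00179 for RNF216 and 0.0147 for USP42, which was 0.0996 at most when 1 array was left out.

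**Figure D2:**
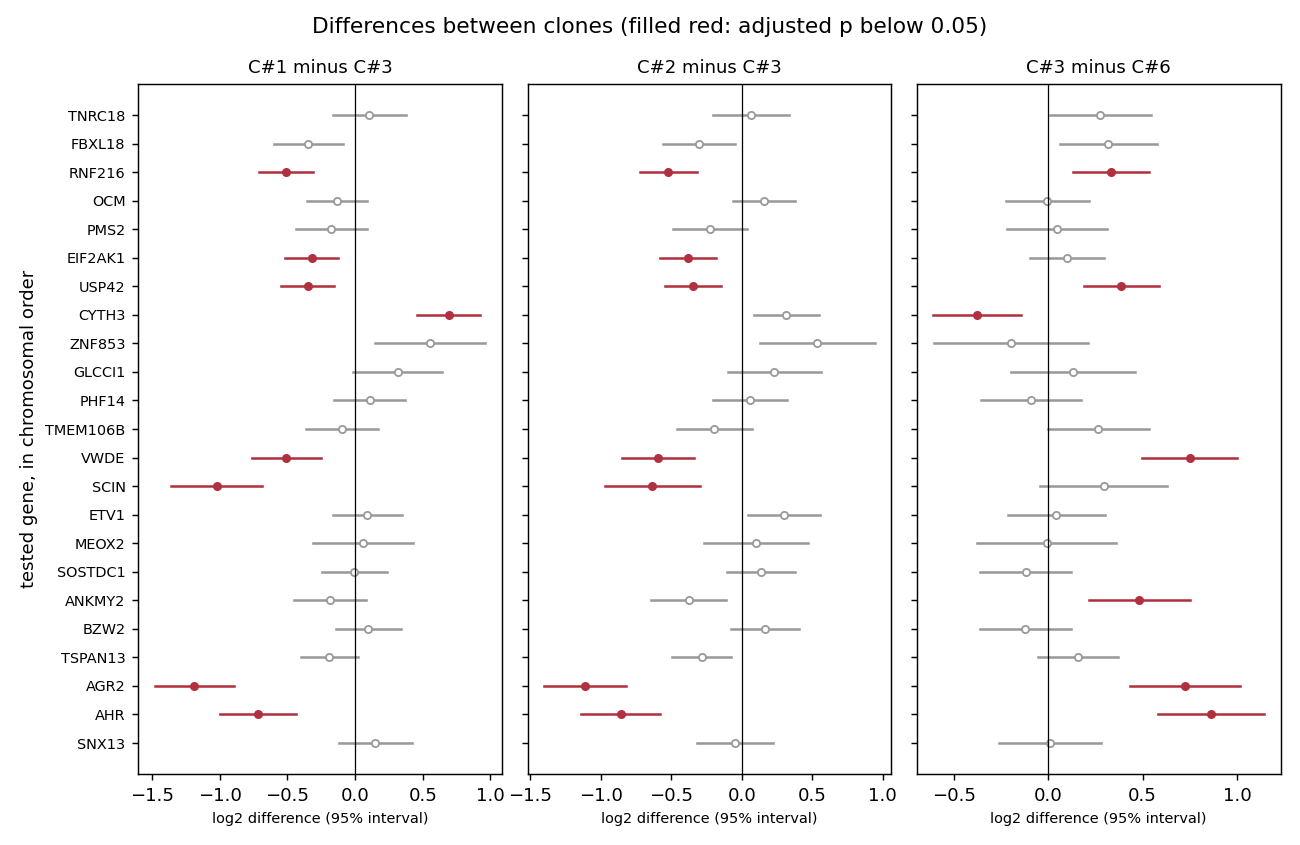
Log2 differences between clones (x axis, points) with their 95% intervals (bars) for the 23 tested genes in chromosomal order (y axis), for C#1 minus C#3, C#2 minus C#3 and C#3 minus C#6. Filled red points passed an adjusted p of 0.05; AGR2, AHR, VWDE, RNF216 and USP42 are red in all 3 panels, and CYTH3 is red on the side opposite to the other called genes for C#1 minus C#3 and C#3 minus C#6.

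Among the genes of protein folding and trafficking, AGR2 had the largest difference between clones. AGR2 had log2 values of 6.07, 6.57 and 6.28 in C#1, 6.25, 6.70 and 6.20 in C#2, 7.50, 7.52 and 7.47 in C#3 and 6.74, 6.88 and 6.69 in C#6, against 7.53, 7.49 and 7.64 in parental cells. The C#3 arrays overlapped the parental ones, whereas all arrays of C#1, C#2 and C#6 lay below them. AGR2 was lower than parental by a log2 difference of -1.25 in C#1, -1.17 in C#2 and -0.78 in C#6 (SE 0.14), or 2.37-, 2.25- and 1.72-fold. In C#3 the difference was -0.06, with a 95% interval of -0.35 to 0.23. Between the clones, AGR2 was 2.28-fold lower in C#1 than in C#3 (log2 difference -1.19, SE 0.14, limma adjusted p = 2.32e-05), and C#2 and C#6 likewise lay below C#3. Its close relative AGR3, the next listed gene, did not pass the filter. Its arrays lay between 2.41 and 2.84, below the 40th percentile of each array, so that no level of AGR3 could be compared.

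TMEM106B, a lysosomal membrane protein, and SNX13, a sorting nexin of membrane traffic, complete this group. The TMEM106B arrays read 7.68, 7.30 and 7.44 in C#1, 7.40, 7.48 and 7.24 in C#2, 7.61, 7.69 and 7.41 in C#3 and 7.46, 7.23 and 7.23 in C#6, against 7.66, 7.89 and 8.0 in parental cells (log2). The C#1 and C#3 arrays overlapped the parental ones. Log2 values of SNX13 were 8.02, 8.04 and 8.05 in C#1, 7.87, 7.97 and 7.66 in C#2, 7.92, 8.16 and 7.57 in C#3 and 8.0, 7.79 and 7.83 in C#6, against 8.51, 8.41 and 8.50 in parental cells. Every clone array of SNX13 lay below every parental array, and its differences of -0.44, -0.64, -0.59 and -0.60 in C#1, C#2, C#3 and then C#6 (SE 0.13) lay within a narrow span. The F test did not call SNX13 (adjusted p = 0.615), and its difference between C#3 and C#6 had a 95% interval of -0.26 to 0.28. SNX13, the last listed gene, was thus lower in C#3, where AHR, listed next to it, was not.

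AHR, among the transcription and chromatin genes, was also highest in C#3 of the 4 clones. For AHR the arrays gave 8.41, 8.42 and 8.43 in C#1, 8.33, 8.35 and 8.16 in C#2, 9.34, 9.25 and 8.82 in C#3 and 8.48, 8.28 and 8.06 in C#6, against 8.96, 9.06 and 9.14 in parental cells (log2). The C#3 arrays lay on both sides of the parental ones, with 2 above and 1 below, and all other clone arrays lay below parental. AHR differed from parental by -0.63 in C#1, -0.78 in C#2, 0.08 in C#3 and -0.78 in C#6 (SE 0.13), with a 95% interval of -0.20 to 0.36 in C#3. It was 1.82-fold higher in C#3 than in C#6 (log2 difference 0.86, SE 0.13, limma adjusted p = 0.000532). C#1 and C#2 were lower than C#3 by log2 differences of -0.72 and -0.86.

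The other transcription and chromatin genes had smaller differences from parental in C#1 and C#2. TNRC18, a large chromatin protein and the first listed gene, was measured by a pair of probe sets. TNRC18 had log2 values of 8.55, 8.24 and 8.24 in C#1, 8.32, 8.49 and 8.10 in C#2, 8.21, 8.20 and 8.30 in C#3 and 8.21, 7.81 and 7.87 in C#6, against 8.55, 8.46 and 8.55 in parental cells. The C#1 arrays lay on both sides of the parental range, the highest just above it. The highest C#2 array lay within that range, and all C#3 and C#6 arrays lay below it. The differences from parental were -0.18, -0.22, -0.28 and -0.56 (SE 0.13) in C#1, C#2, C#3 and then C#6, and -0.57, -0.41, -0.31 and -0.60 in the dimmer probe set. PHF14, a protein with zinc-binding PHD fingers, differed by -0.29, -0.34, -0.40 and -0.31 (SE 0.12), with every clone array below parental. ZNF853, a zinc finger gene, differed by 0.06, 0.04, -0.49 and -0.30 (SE 0.19).

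ETV1, an ETS-family transcription factor, and MEOX2, a homeobox factor, were close to background. The ETV1 arrays read 3.63, 3.56 and 3.35 in C#1, 3.75, 3.62 and 3.79 in C#2, 3.47, 3.19 and 3.60 in C#3 and 3.40, 3.24 and 3.49 in C#6, against 3.53, 3.34 and 3.28 in parental cells (log2). Log2 values of MEOX2 were 3.65, 3.56 and 3.98 in C#1, 3.64, 3.85 and 3.82 in C#2, 4.16, 3.41 and 3.43 in C#3 and 3.90, 3.54 and 3.58 in C#6, against 3.67, 3.48 and 3.46 in parental cells. The groups overlapped parental in both genes except that all C#2 arrays of ETV1 lay above it. ETV1 exceeded the 40th percentile in only 3 arrays, all of C#1 or C#2, and MEOX2 in 8, among them 1 parental array.

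The windows before the start sites of the 4 genes that the results turn on most are shown to place them side by side: AGR2 and AHR, whose C#3 arrays overlapped parental, VWDE, the lowest gene, and SCIN, the one gene called higher. Each is the 250 bases before the start, from RefSeq's GRCh38.p14 sequence, read on the gene's strand. Capitals mark GCGTG or its reverse complement CACGC, the core that AHR binds with ARNT, and AGATAA or its reverse complement TTATCT, bound by GATA factors. Both motifs were chosen after the values were seen, and no marked match overlaps another in these 4 windows.
AGR2 (chr7:16805000-16805249, minus strand): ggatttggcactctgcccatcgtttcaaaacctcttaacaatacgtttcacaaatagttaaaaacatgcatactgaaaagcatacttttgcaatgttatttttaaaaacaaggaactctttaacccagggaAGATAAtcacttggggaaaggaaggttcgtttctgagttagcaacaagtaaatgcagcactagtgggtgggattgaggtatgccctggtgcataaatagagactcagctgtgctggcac
AHR (chr7:17298402-17298651, plus strand): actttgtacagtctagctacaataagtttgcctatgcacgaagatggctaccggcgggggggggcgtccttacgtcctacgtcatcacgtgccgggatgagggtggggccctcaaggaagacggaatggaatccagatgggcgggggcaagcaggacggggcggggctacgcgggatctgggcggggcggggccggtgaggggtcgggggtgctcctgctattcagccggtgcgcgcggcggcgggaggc
VWDE (chr7:12403866-12404115, minus strand): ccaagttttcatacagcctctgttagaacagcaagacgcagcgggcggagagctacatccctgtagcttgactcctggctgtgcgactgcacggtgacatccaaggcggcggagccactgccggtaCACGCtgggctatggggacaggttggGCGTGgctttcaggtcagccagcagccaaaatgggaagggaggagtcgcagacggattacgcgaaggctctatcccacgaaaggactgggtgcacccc
SCIN (chr7:12570470-12570719, plus strand): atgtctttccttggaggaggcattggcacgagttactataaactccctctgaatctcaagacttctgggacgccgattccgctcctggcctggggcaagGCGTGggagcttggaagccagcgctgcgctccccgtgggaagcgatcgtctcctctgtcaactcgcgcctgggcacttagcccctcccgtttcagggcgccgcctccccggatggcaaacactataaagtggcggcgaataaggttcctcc
GCGTG on either strand was in 13 of 31 windows of listed genes and in 31.9% of 27305 windows of all genes. The 31 windows include listed genes that were not analysed here, DGKB among them. They lack the tested genes FBXL18, OCM, EIF2AK1, USP42 and SOSTDC1. AGATAA on either strand was in 2 of the 31, AGR2 and DGKB, and in 9.37% of all. G and C made up 40.4% of the AGR2 window and 66.8% of the AHR window, against a median of 58.0% over all windows. A match is a description of the letters only.

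VWDE, a secreted protein with von Willebrand and EGF domains, had the lowest mean difference from parental of the 23 genes. For VWDE the arrays gave 4.30, 4.34 and 3.99 in C#1, 4.14, 4.09 and 4.14 in C#2, 4.78, 4.72 and 4.65 in C#3 and 3.70, 4.09 and 4.12 in C#6, against 5.28, 5.28 and 5.38 in parental cells (log2). No clone array reached the parental range, and those of C#3 lay between parental and the other clones. VWDE was lower than parental by -1.10, -1.19, -0.59 and -1.34 (SE 0.12) in C#1, C#2, C#3 and then C#6, or 2.15-, 2.28-, 1.51- and 2.54-fold. Between clones, it was 1.68-fold higher in C#3 than in C#6 (limma adjusted p = 0.000718). TSPAN13, a membrane protein of the tetraspanin family, differed from parental by -0.43, -0.52, -0.24 and -0.40 (SE 0.10), with every clone array below parental. SOSTDC1, a secreted inhibitor of BMP and Wnt signals, was near background, with values between 3.29 and 3.75, and passed the filter in 5 arrays, none of them parental.

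SCIN and CYTH3, the measured genes of actin and cell shape, did not follow their neighbours. SCIN had log2 values of 4.59, 5.11 and 4.72 in C#1, 4.95, 5.59 and 5.04 in C#2, 5.92, 5.79 and 5.77 in C#3 and 5.64, 5.59 and 5.37 in C#6, against 4.48, 4.60 and 4.37 in parental cells. The arrays of C#2, C#3 and C#6 all lay above parental, C#3 highest, while one C#1 array lay within the parental range. SCIN exceeded parental by 0.32, 0.71, 1.35 and 1.05 (SE 0.16) in C#1, C#2, C#3 and then C#6, or 1.25-, 1.64-, 2.54- and 2.07-fold. Between clones it was 2.03-fold lower in C#1 than in C#3 (limma adjusted p = 0.000318) and 1.66-fold lower in C#1 than in C#6 (adjusted p = 0.00575). VWDE, its neighbour, had its lowest value in C#6, where SCIN was 2.07-fold above parental.

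CYTH3, an exchange factor for ARF GTPases at the cell membrane, went with neither pattern. The CYTH3 arrays read 4.34, 4.40 and 4.40 in C#1, 4.22, 3.87 and 3.92 in C#2, 3.71, 3.61 and 3.74 in C#3 and 4.06, 4.19 and 3.94 in C#6, against 4.29, 4.29 and 4.07 in parental cells (log2). Only the C#3 arrays all lay below parental, by -0.53 (SE 0.11). The C#1 arrays lay above all parental ones. C#1 was 1.62-fold higher than C#3 (limma adjusted p = 0.000376), so C#3, in which most called genes were closest to parental, had the lowest CYTH3.

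**Figure D3:**
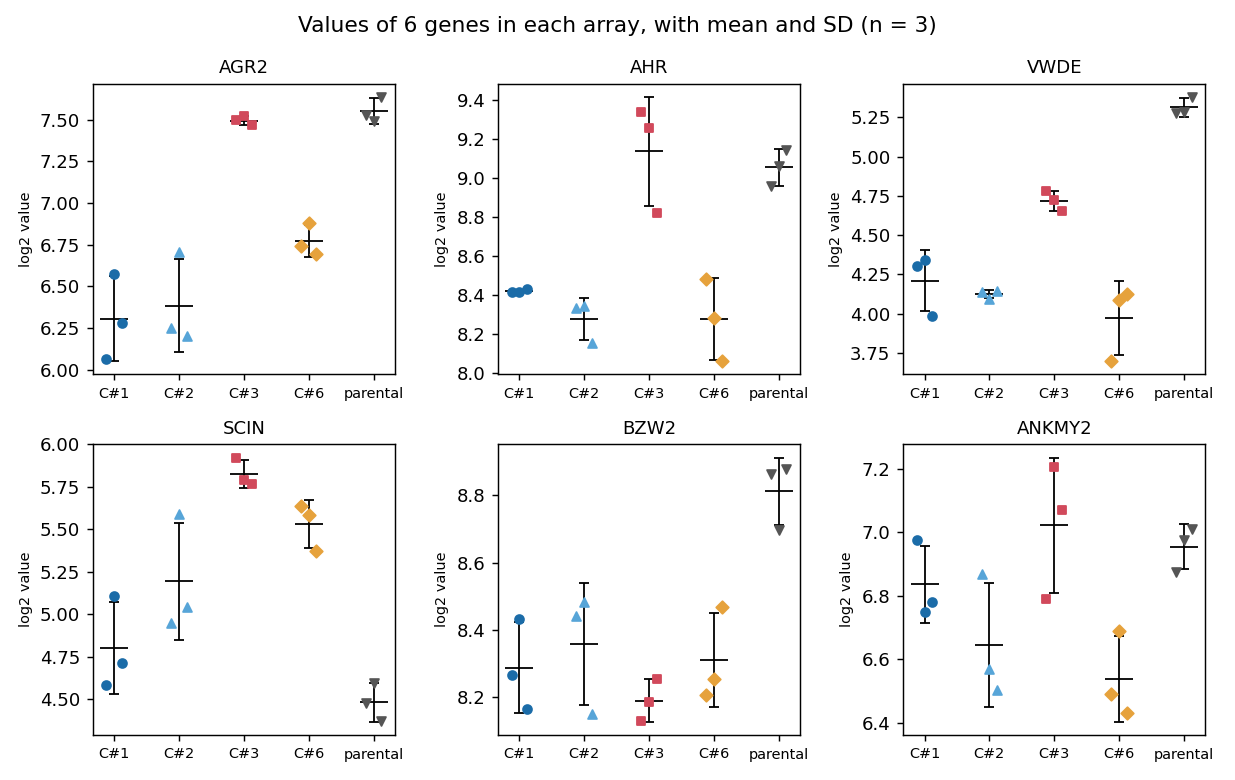
Log2 values (y axis) of AGR2, AHR, VWDE, SCIN, BZW2 and ANKMY2 in each array (points) with the mean (bar) and SD (whiskers, n = 3) of C#1, C#2, C#3, C#6 and parental cells (x axis). C#3 is level with parental for AGR2 and AHR, between parental and the other clones for VWDE, the highest group for SCIN, and as low as the other clones for BZW2.

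All 3 ubiquitin genes were lower in C#1, C#2 and C#6, and they stood closer to parental in C#3. RNF216 is a ubiquitin ligase. Log2 values of RNF216 were 7.05, 7.15 and 6.99 in C#1, 6.96, 7.14 and 7.06 in C#2, 7.56, 7.67 and 7.50 in C#3 and 7.18, 7.21 and 7.34 in C#6, against 7.89, 7.87 and 7.74 in parental cells. Its differences were -0.77, -0.78, -0.26 and -0.59 (SE 0.09) in C#1, C#2, C#3 and then C#6. C#1 and C#2 were 1.43-fold lower than C#3 (limma adjusted p = 0.00135 and 0.00122). RNF216P1, a pseudogene of RNF216 that lies before TNRC18, differed by -0.94, -1.33, -0.50 and -0.83. Whether the probe sets tell both apart was not tested.

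USP42 removes ubiquitin from proteins. For USP42 the arrays gave 6.99, 7.13 and 7.20 in C#1, 7.07, 7.15 and 7.11 in C#2, 7.56, 7.49 and 7.31 in C#3 and 7.07, 7.10 and 7.04 in C#6, against 7.69, 7.66 and 7.75 in parental cells (log2). It differed by -0.59, -0.59, -0.24 and -0.63 (SE 0.09). FBXL18 is an F-box subunit of ubiquitin ligases. FBXL18 had log2 values of 5.73, 5.91 and 5.38 in C#1, 5.71, 5.76 and 5.67 in C#2, 6.10, 5.93 and 6.02 in C#3 and 5.63, 5.88 and 5.59 in C#6, against 6.26, 6.23 and 6.29 in parental cells. It differed by -0.59, -0.54, -0.24 and -0.56 (SE 0.12), and by -0.30, -0.15, -0.07 and -0.14 in a dimmer probe set. No clone array of either gene reached the parental range. FBXL18 did not pass the test between C#1 and C#3 (log2 difference -0.35, 95% interval -0.60 to -0.09, limma adjusted p = 0.0627).

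EIF2AK1 and BZW2 act in translation. EIF2AK1 is the haem-regulated kinase that phosphorylates the initiation factor eIF2 under stress, and BZW2 is a regulator of start codon choice. The EIF2AK1 arrays read 10.29, 10.23 and 10.19 in C#1, 10.23, 10.21 and 10.09 in C#2, 10.65, 10.56 and 10.45 in C#3 and 10.55, 10.34 and 10.47 in C#6, against 10.62, 10.67 and 10.70 in parental cells (log2). One C#3 array overlapped parental, and all other clone arrays lay below. EIF2AK1 differed by -0.42, -0.49, -0.11 and -0.21 (SE 0.09), and was lower in C#1 and C#2 than in C#3 by -0.32 and -0.38 (limma adjusted p = 0.0256 and 0.00944). Log2 values of BZW2 were 8.27, 8.43 and 8.16 in C#1, 8.44, 8.48 and 8.15 in C#2, 8.13, 8.19 and 8.25 in C#3 and 8.20, 8.25 and 8.47 in C#6, against 8.86, 8.70 and 8.88 in parental cells. Every clone array of BZW2 lay below parental, and its differences of -0.53, -0.46, -0.62 and -0.50 (SE 0.11) did not pass the F test among clones (adjusted p = 0.682).

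ANKMY2, an ankyrin repeat protein that starts 427 bases from BZW2 on the opposite strand in the RefSeq sequence, had a different order of clones. For ANKMY2 the arrays gave 6.98, 6.75 and 6.78 in C#1, 6.87, 6.57 and 6.5 in C#2, 6.79, 7.21 and 7.07 in C#3 and 6.49, 6.69 and 6.43 in C#6, against 6.87, 6.98 and 7.01 in parental cells (log2). The C#2 and C#6 arrays lay below all parental arrays, one C#2 array by less than 0.01, and those of C#1 and C#3 overlapped them. ANKMY2 differed from parental by -0.12, -0.31, 0.07 and -0.42 (SE 0.13), against -0.53, -0.46, -0.62 and -0.50 for BZW2. C#3 was higher than C#6 in ANKMY2 by a log2 difference of 0.48 (limma adjusted p = 0.0227, a call lost without any one of 4 single arrays), while the difference of BZW2 between C#3 and C#6 was -0.12 with a 95% interval of -0.36 to 0.12. Their 250-base windows share 74 bases, and the difference between both genes was not tested.

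GLCCI1, a glucocorticoid-induced gene, had the widest parental spread of the listed genes (SD 0.34, n = 3). GLCCI1 had log2 values of 4.88, 5.15 and 5.28 in C#1, 5.08, 4.90 and 5.07 in C#2, 4.82, 4.75 and 4.79 in C#3 and 4.39, 4.75 and 4.81 in C#6, against 5.36, 5.74 and 5.06 in parental cells. The C#3 and C#6 arrays lay below all parental ones and those of C#1 and C#2 overlapped them. PMS2, a DNA mismatch repair protein, differed by -0.19, -0.24, -0.01 and -0.06 (SE 0.12) and overlapped parental in every clone. Its pseudogene PMS2CL, inside the stretch, differed by -0.33, -0.48, 0.01 and -0.32, and whether the probe sets tell both apart was not tested. OCM, oncomodulin, a calcium-binding protein with a close paralogue, differed by -0.07, 0.23, 0.07 and 0.07 (SE 0.10). AGMO, an ether lipid enzyme, and LRRC72 did not pass the filter.

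The edges of the stretch were not sharp. Just outside it, MMD2, RNF216P1 and RBAK preceded TNRC18, and RNF216P1 was called lower in all 4 clones, whereas MMD2 (-0.23 to 0.02) and RBAK (-0.35 to -0.15) were not called. After SNX13 came PRPS1L1 (-0.27 to -0.12) and HDAC9 (-0.23 to -0.07), not called, and TWIST1, a transcription factor of mesenchymal cells, which differed by -0.54, -0.67, -1.06 and -1.10 (SE 0.15) and was called lower in all 4. Just inside, TNRC18 and FBXL18 differed by -0.59 to -0.18 and AHR and SNX13 by -0.78 to 0.08. Of 6 tested genes inside the stretch that were not listed, ZNF12 differed by -0.72 to -0.56 and was called lower in all 4 clones, and CCZ1, which has a near-identical copy, differed by -0.67 to -0.42 and was called lower in 3.

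The 37 genes before TNRC18 had 11, 8, 8 and 14 genes called lower in C#1, C#2, C#3 and then C#6, or 29.7%, 21.6%, 21.6% and 37.8%, and the 25 genes after SNX13 had 11, 10, 7 and 12, or 44%, 40%, 28% and 48%. Over the other 484 genes of chromosome 7 the shares were 21.5%, 21.7%, 6.61% and 16.1%, and over all genes 11.2%, 11.5%, 11% and 14.7%. The share before TNRC18 in C#2 was thus no higher than in the rest of the chromosome. The medians were -0.15, -0.11, -0.13 and -0.22 before TNRC18 and -0.11, -0.18, -0.14 and -0.21 after SNX13, against -0.29, -0.37, -0.24 and -0.42 for the listed genes. Over those 484 other genes they were -0.06, -0.07, 0.06 and 0.06. Lower values ran beyond the listed genes on both sides. The running median of 15 genes first reached 0 after SNX13 at gene 240 of the chromosome in C#1, 241 in C#2, 137 in C#3 and 85 in C#6, where SNX13 is gene 66. It was lowest at PURB in C#1 (-0.50), FERD3L in C#2 (-0.52), DPY19L1P1 in C#6 (-0.53) and ST7-AS1 in C#3 (-0.34), all outside the stretch.

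**Figure D4:**
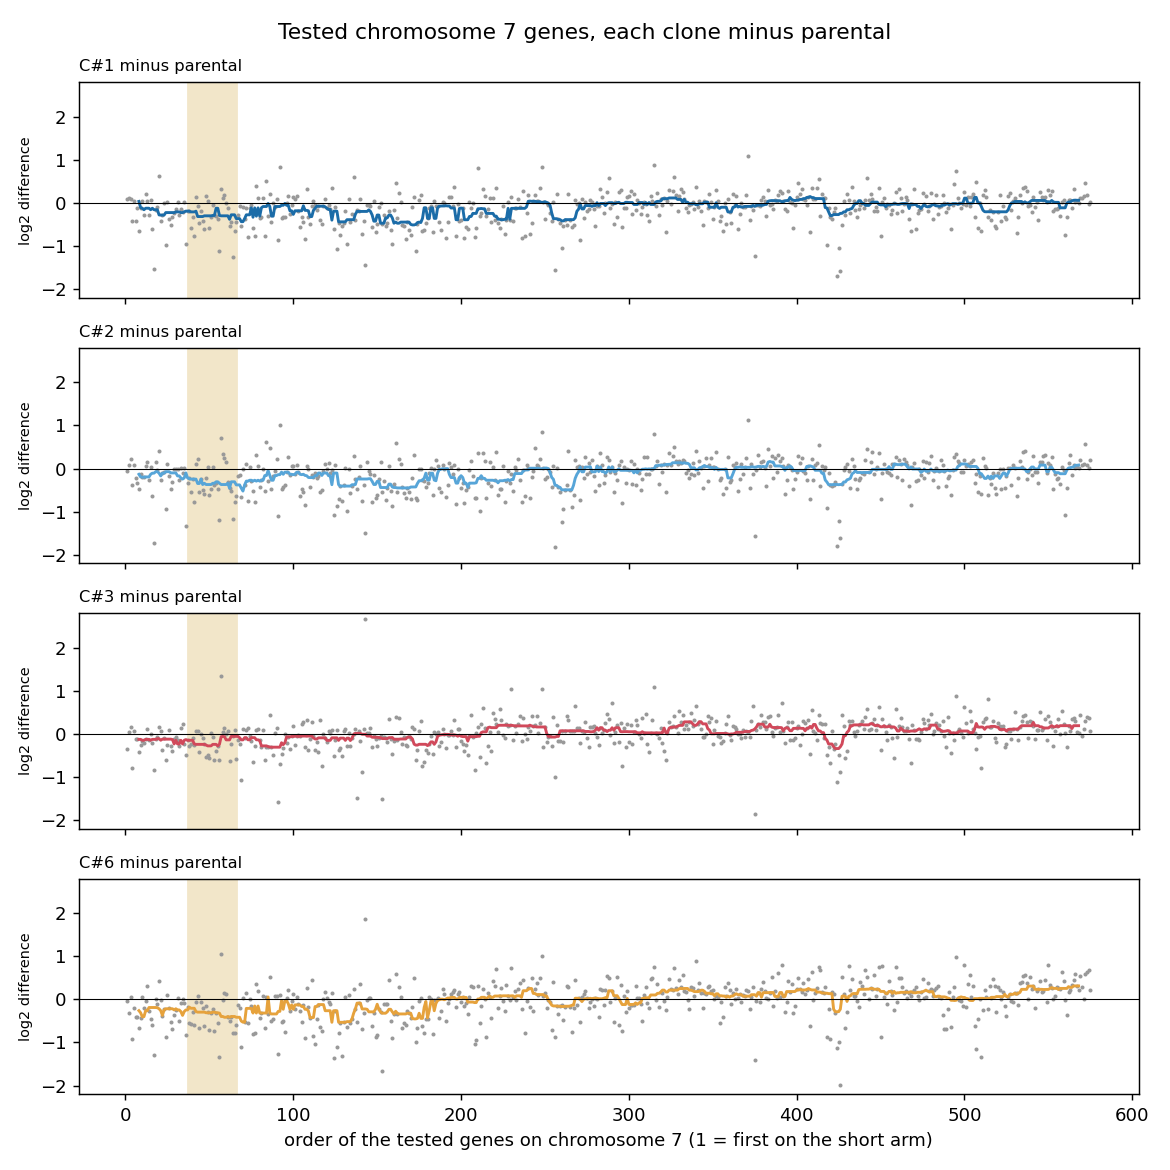
Log2 difference from parental (y axis) of each tested chromosome 7 gene (grey points) by its order on the chromosome (x axis), with the running median of 15 genes (line), for C#1, C#2, C#3 and then C#6. The shaded band spans TNRC18 to SNX13, and the line lies below 0 in the band and next to it on both sides in all 4 clones; of the windows before the band, 1 lies above 0, the first of C#1, centred on COX19 (0.04).

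The partners of the listed genes, from lists of known pathway members, were counted without the listed genes. Over all genes 11.2%, 11.5%, 11% and 14.7% were called lower and 6.03%, 5.47%, 6.22% and 7.73% higher in C#1, C#2, C#3 and then C#6. No test of the lists against these shares was run. Of 4 measured partners of AHR, PTGES3, a chaperone of the AHR complex, was called lower in C#3 (-0.43, limma adjusted p = 0.00457) and C#6 (-0.41, adjusted p = 0.00417), and TIPARP, a target gene, in C#3 (-0.30, adjusted p = 0.0494). ARNT and ARNT2, the DNA-binding partners, were not called in any clone. Of 7 measured disulfide isomerases, KDEL receptors and chaperones, KDELR1, which returns proteins to the endoplasmic reticulum, differed by -0.66, -0.79, -0.84 and -0.65 and was called lower in all 4 clones (highest limma adjusted p = 0.00229). CALR, calreticulin, was called higher in all 4, by 0.49, 0.47, 0.33 and 0.53. Those 7 genes had 1, 1, 1 and 2 called lower and 1 called higher in each of C#1, C#2, C#3 and then C#6.

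Of 11 measured eIF2 kinases and stress response genes besides EIF2AK1, 1 (9.09%) was called lower and 1 higher in each clone, near the share of all genes. EIF2AK3, the kinase of the endoplasmic reticulum, was higher in C#3 (0.80, limma adjusted p = 0.000135) and C#6 (0.61, adjusted p = 0.000762). EIF2AK4, the kinase that senses uncharged tRNA, was higher in C#1 and C#2 (0.35 and 0.32) and lower in C#3 (-0.42). ATF5, a stress-induced transcription factor, was lower in C#1 and C#2 (-1.01 and -1.16), and SESN2, sestrin 2, lower in C#6 (-0.84). Of 6 measured mismatch repair genes besides PMS2, MLH3 was called higher in C#1, C#2 and C#6 (0.55, 0.35 and 0.58), the only one called. Of 13 measured RAC1, WAVE and PAK genes, 1, 1, 3 and 3 were called lower (7.69%, 7.69%, 23.1% and 23.1%) and 1 was called higher in C#1 and in C#2. In C#1 and C#2 the lower share was under that of all genes. Among them, ELMO1, part of a RAC1 exchange complex, was lower in C#3 and C#6 (-1.49 and -0.52). Its relative ELMO2 was lower in C#1 and C#2 (-0.63 and -0.67), and VAV3 was lower in C#3 (-0.48). NCKAP1, a WAVE subunit, was higher in C#1 and C#2 (0.40 and 0.28). Each clone was compared with the same parental arrays, so these counts share their chance errors.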

How the data were processed

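Expression was measured on 1-colour Affymetrix arrays. The table deposited by the authors holds log2 values, 1 per probe set (53617) and array (15). RMA, Expression Console 1.4.1 and Transcriptome Analysis Console are named, per the submitters' processing notes, without roles, and no source names a genome build. Symbols came from the platform annotation (16098 probe sets, 30.0%), updated by gene identifier to RefSeq GRCh38.p14, which also gave gene order. A probe set was used if it exceeded its array's 40th percentile in 3 or more arrays, and each gene was represented by its brightest one. limma 3.58.1 in R 4.3.3 (lmFit, eBayes, 1 mean per group, all arrays) gave differences and Benjamini-Hochberg adjusted p-values over 12147 genes. Calls have adjusted p below 0.05. The steps were tested on simulated data for C#1 minus parental, where a share of 0.63 of 1.5-fold changes and 0.96 of 2-fold changes was recovered. Far fewer genes were changed in the simulation than were called in the data, so these shares need not hold for the real calls. Changes under 1.5-fold were not simulated, so a gene that was not called may still differ. The members and lists were chosen with earlier results of these data known. Values of every array are given for members called by the F test, the 10 lowest, the 3 highest and the end members; up to 4 called genes are named per list. The labels call the arrays biological replicates; their number limits the precision. Figures used matplotlib 3.10.9.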

Additional observations from a re-analysis of the deposited data

Results flagged for a closer look

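Of the 23 tested genes, 9 differed among the clones in limma's F test, and the tests of single pairs of clones showed where. Groups of 3 arrays were not tested for single deviating arrays.

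AGR2 (F test adjusted p = 3.61e-05) had log2 differences of -1.19 for C#1 minus C#3, -1.11 for C#2 minus C#3, -0.47 for C#1 minus C#6 and 0.72 for C#3 minus C#6. Its call between C#1 and C#6 (adjusted p = 0.0346) was lost without any one of 5 single arrays, with the 6 arrays alone and at an adjusted p below 0.01. AHR (0.000346) had -0.72, -0.86 and 0.86 for C#1 minus C#3, C#2 minus C#3 and C#3 minus C#6. VWDE (0.00115) had -0.51, -0.59 and 0.75 for the same 3 pairs. RNF216 (0.00179) had -0.51, -0.52 and 0.33, and USP42 (0.0147) had -0.35, -0.35 and 0.39. The last of RNF216 and all 3 of USP42 were lost without any one of 6 and of 3 single arrays. EIF2AK1 (0.0153) had -0.32 for C#1 minus C#3 and -0.38 for C#2 minus C#3, the first lost without any one of 4 single arrays. Both were lost with the 6 arrays alone, and its F test call was lost without C#3 replicate 1. In these 6 genes C#3 was the higher clone of each called pair it took part in.

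SCIN (0.000886) had -1.02 for C#1 minus C#3, -0.63 for C#2 minus C#3 and -0.73 for C#1 minus C#6. The call between C#2 and C#3 was lost without C#2 replicate 1. CYTH3 (0.00167) had 0.69 for C#1 minus C#3 and -0.37 for C#3 minus C#6, the second lost without any one of 8 single arrays. ANKMY2 (0.0364) had 0.48 for C#3 minus C#6, lost without any one of 4.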

How the results depend on the processing

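No called value of a single gene changed sign under the alternatives tried, and 57 of 77 calls of single genes, over the 4 comparisons with parental, the 6 pairs of clones and the F test, were kept under all of them. Most of the 77 were calls against parental, which follow from how the genes were listed. Calls against parental were lost less often than those between clones, so the pooled figure overstates how many calls between clones were kept. Of 5994 single-gene repeats, 116 lost and 43 gained a call.

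The count of listed genes called between C#1 and C#6 was 1 instead of 2 with the 6 arrays alone and at an adjusted p below 0.01. Between C#2 and C#6 it was 1 instead of 0 with a stricter filter, with the replicate number as a block and with trend and robust settings. Between C#3 and C#6 it was 3 instead of 7 with the 6 arrays alone and at the stricter p. Leaving out 1 array gave 1 to 3, 0 to 2 and 3 to 7 genes for these pairs. The first was 1 without C#1 replicate 3, C#6 replicate 2 or C#6 replicate 3, the second 2 without C#2 replicate 2 and 1 without C#6 replicate 1, and the third 3 without C#3 replicate 2 and 4 without C#3 replicate 1 or C#6 replicate 1. Against parental, leaving out 1 array gave 9 to 11, 10 to 12, 4 to 6 and 12 to 13 genes called lower in C#1, C#2, C#3 and then C#6. The share of all genes called lower moved as well, over 6.65% to 12%, 7.32% to 12.4%, 7.04% to 11.7% and 10.5% to 15.2%. The replicate block gave 10, 11, 6 and 13 genes, against 12.3%, 12.9%, 11.9% and 15.6% of all genes. With renewed quantile normalization of the arrays, 8.69%, 8.54%, 8.61% and 10.8% of all genes were called lower. The median difference of all genes was then 0.0082, 0.018, 0.027 and 0.027. Calls lost there were TMEM106B in C#1 and C#2, PHF14 in C#3, ANKMY2 in C#6 and the F test, and RNF216 between C#3 and C#6. For the pairs of clones, the share of all genes under the alternatives was not computed. Deviations of same-numbered arrays from their group means correlated at -0.129 to 0.462 (median 0.0509, against -0.0169 for differently numbered arrays), over 0.1 in 10 of 30 pairs, so the number was not taken as a pairing. That some arrays shared a batch was not tested. The median difference of the listed genes ranged from -0.43 to -0.24, -0.48 to -0.32, -0.26 to -0.17 and -0.55 to -0.34 over the alternatives. The calls lost most often without 1 array were TMEM106B in C#1 (10 of 15 arrays), CYTH3 between C#3 and C#6 (8) and SNX13 in C#1, PHF14 in C#3, RNF216 between C#3 and C#6 and ANKMY2 in the F test (6 each). USP42 lost each of its 3 pair calls without 3 arrays and its F test call without C#3 replicate 1 or 2. The cause was not tested.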
